A study of Mus musculus with 28 samples.

Results

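The genes described here are 42 cell cycle genes of the mouse, listed by name: cyclins and their kinases, the machinery that licenses and copies DNA, and the kinases, motors and adaptors of mitosis. A gene counted as measured when a probe set of the array named it alone, and where several did, the brightest of them on average was taken. This held for 35 of the 42, out of 18820 genes with such a probe set in the whole data set. Ccne2, Foxm1, Tyms, Ube2c, Kif20a and Nusap1 appeared on probe sets that name several genes, and Ccnb1 on none of those listed, so no value is given for them.

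The livers came from 28 male C57BL/6J mice, 1 array for each. Their intermittent diet, which followed each week of unrestricted moderate-fat food (25% of energy from fat) with a week of food worth 60% of what control mice eat, was started at 9 weeks of age. Livers of mice kept on it for life were taken at 6 months from 6 mice, at 12 months from 7 and at 24 months from 7. Livers of 8 more mice, called switched, were also taken at 24 months: these mice ate moderate-fat food only until they were 12 months old and the intermittent diet afterwards, so against the younger groups their age and diet history cannot be told apart. All mice were fasted for 4 hours before and 6 hours after a gavage of a cellulose carrier, and nothing in the labels says on which week of the diet cycle a liver was taken. Values are log2 expression values, as the authors normalised them, and a difference of 1 is a 2-fold change. The array names carry a batch label (G150, G151 or G152), every batch held livers of all 4 groups, and the batch was a term of the model. The array medians ran from 5.23 to 5.31, and no array correlated below 0.978 with another.

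A resting hepatocyte sits outside the cell cycle and can re-enter it after tissue loss. Entry is driven by D-type cyclins, which lift the RB brake from E2F transcription factors and so switch on the genes of DNA replication. The genes of mitosis come on later, as a repressor complex called DREAM gives way to B-MYB and FOXM1. These act through a CHR element (TTTGAA) near the start of those genes, where CCAAT boxes often stand too. Liver also holds Kupffer cells, endothelial cells and lymphocytes, which can divide too. In RNA from whole liver, more cells of a type and more RNA per cell cannot be told apart.

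Many promoters of the listed genes carry letters that this scheme names. The RefSeq table used (mouse build GRCm38.p6) held 37 promoters of 35 of the 42 genes. These are not the same 35 as the genes with a value: 31 are in both sets, Ccnb1, Nusap1, Tyms and Ube2c only in the first and Aurkb, Ccna2, Ccnd1 and Mcm4 only in the second. In the 250 bases before the start, searched on both strands, CCAAT stood in 29 of the 37, or 78.4%, against 33.8% of all 32851 promoters of the table. TTTGAA stood in 10, or 27%, against 16% of all, and every one of those 10 also held CCAAT, a combination found in 5.55% of all promoters. An E2F site (TTTGGCGC, TTTCCCGC or TTTCGCGC) stood in 5, or 13.5%, against 1.53% of all. Over the whole 300 bases of the table, which run past the start, TTTGAA stood in 18, or 48.6%, against 17.9% of all. The 200 bases before the start are shown for 3 genes of late cell cycle and for 2 subunits of the replicative helicase, since results below turn on these groups, with the matches in capitals. Matches to CCAAT, also read as ATTGG, and to TTTGAA, also read as TTCAAA, mark the first 3, and matches to an E2F site and to CCAAT the last 2, where neighbouring E2F matches overlap. A match describes the letters and is not a tested binding site.
Mki67: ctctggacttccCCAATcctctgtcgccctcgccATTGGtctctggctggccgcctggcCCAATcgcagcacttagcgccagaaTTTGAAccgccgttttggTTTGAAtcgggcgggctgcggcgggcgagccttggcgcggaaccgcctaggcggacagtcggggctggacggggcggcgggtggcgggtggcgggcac
Top2a: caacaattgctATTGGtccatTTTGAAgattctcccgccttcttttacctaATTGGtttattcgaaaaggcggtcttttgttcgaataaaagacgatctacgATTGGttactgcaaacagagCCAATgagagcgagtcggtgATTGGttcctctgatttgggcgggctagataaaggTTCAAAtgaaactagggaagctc
Ccnb2: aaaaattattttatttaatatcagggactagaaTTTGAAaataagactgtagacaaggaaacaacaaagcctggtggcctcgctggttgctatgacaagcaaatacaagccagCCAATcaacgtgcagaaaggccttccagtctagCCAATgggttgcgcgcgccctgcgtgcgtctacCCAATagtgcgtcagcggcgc
Mcm5: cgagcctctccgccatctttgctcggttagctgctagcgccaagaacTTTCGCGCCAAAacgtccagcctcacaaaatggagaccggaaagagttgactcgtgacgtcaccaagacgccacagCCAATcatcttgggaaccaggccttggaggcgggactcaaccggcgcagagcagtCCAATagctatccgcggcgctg
Mcm6: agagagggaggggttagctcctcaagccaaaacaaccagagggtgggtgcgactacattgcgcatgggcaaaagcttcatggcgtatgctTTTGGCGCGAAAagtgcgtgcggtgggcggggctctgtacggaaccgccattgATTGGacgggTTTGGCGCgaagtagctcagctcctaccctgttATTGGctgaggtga
Mki67 lies on the minus strand at chr7:135716380-135716579, Top2a on the minus strand at chr11:99024190-99024389, and Ccnb2 on the minus strand at chr9:70421555-70421754. Mcm5 lies on the plus strand at chr8:75109309-75109508, and Mcm6 on the minus strand at chr1:128359706-128359905. In these stretches Mki67 holds 2 CHR and 3 CCAAT matches, and Top2a 2 and 5. Mcm5 holds 2 E2F matches and Mcm6 holds 3, and neither has a CHR match. The genes shown do not stand for all of their groups. In the 250 bases before the start Mcm2 holds 1 CHR match and no E2F match, and Mcm3 holds no E2F match. Bub1b, Cdca3 and Kif23 hold no CHR match there, while Cdc20 and Kif11 hold 1 each.

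Over the 4 groups, limma's moderated F test was used with Benjamini-Hochberg adjustment over all 35556 probe sets and a threshold of 0.05. It called 8.07% of all probe sets and 10.6% of all measured genes. Of the 35 measured cell cycle genes, 8 passed, or 22.9%. They were the helicase subunits Mcm2, Mcm3 and Mcm4, the cyclin Ccna2, the kinase Aurkb, the mitotic protein degradation genes Cdc20 and Cdca3, and the proliferation marker Mki67. Adjusted p ran from 0.00512 for Cdca3 to 0.0399 for Mcm2. In all 8 the higher means belonged to the livers of 24 months. Cdca3, Mki67, Aurkb and Mcm3 stayed past the threshold whichever liver was left out, while the number of genes called ran from 4 to 12 over those fits, with 4 when switched replicate 1 or 4 was left out and 5 without switched replicate 2 or 7 or without replicate 1, 2, 3, 4 or 6 of 6 months.

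Mki67 encodes Ki-67, a coat protein of mitotic chromosomes made by cycling cells and widely used to count them. Its lowest, median and highest values were 4.06, 4.48 and 4.72 at 6 months, 4.00, 4.41 and 4.83 at 12 months, 4.46, 5.36 and 6.15 in switched livers at 24 months, and 4.47, 5.12 and 6.05 in lifelong livers at 24 months. The highest of the 13 younger livers reached 4.83, and 7 of 8 switched and 5 of 7 lifelong livers of 24 months stood above it. The lowest liver of each old group lay within the range of the younger ones. All 8 switched and all 7 lifelong livers of 24 months stood above the mean of the younger livers. Livers of 24 months therefore covered the upper part of the younger range and higher levels.

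**Figure D1:**
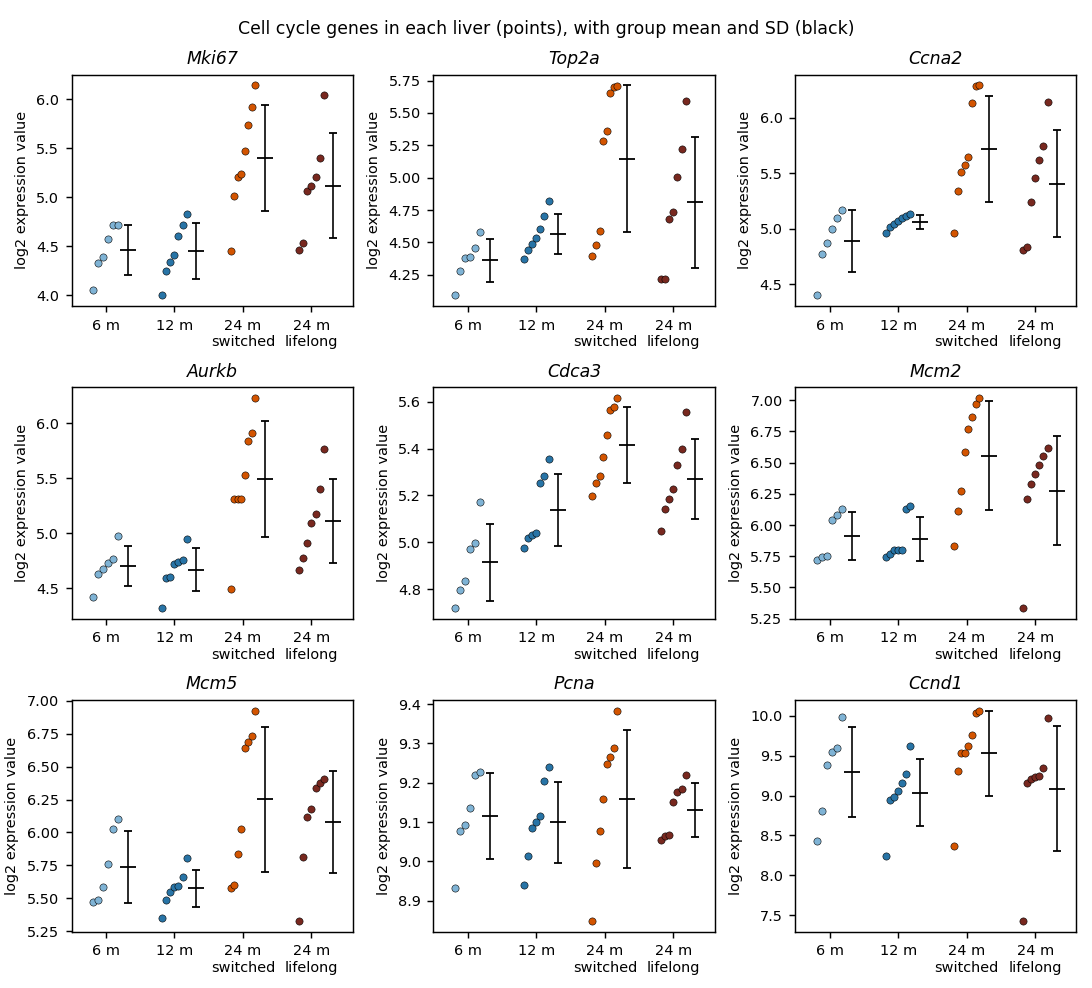
Log2 expression values of 9 cell cycle genes in each liver, by group, with the group mean and SD in black. Mki67, Top2a, Ccna2, Aurkb, Cdca3, Mcm2 and Mcm5 reach higher in livers of 24 months, with a wide spread among those livers in all but Cdca3. Pcna and Ccnd1 overlap across all 4 groups.

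Between switched and lifelong livers, both at 24 months, no cell cycle gene passed limma's test, beside 0.0197% of all probe sets. Against 1481 of all 18820 measured genes, 1 of the 35 had an unadjusted p under 0.05. This was Cdc20, the activator of the anaphase-promoting complex, with a mean of 4.83 ± 0.15 in switched livers (SD, n = 8) and 4.66 ± 0.13 in lifelong livers (SD, n = 7), a log2 difference of 0.18 ± 0.07 (SE, limma adjusted p = 0.514). The other 3 of smallest p were Aurkb at 0.34 ± 0.18, Melk, a kinase of proliferating cells, at 0.15 ± 0.08, and Tk1 at -0.34 ± 0.20 (log2 difference ± SE), each with an adjusted p of at least 0.71. The second, dimmer probe set of Tk1, which does not enter these counts, differed by -0.40 (limma unadjusted p = 0.0273, adjusted p = 0.588). The median difference over the 35 genes was 0.13, against -0.0025 over all measured genes. Of the 35, 27 were higher in switched livers, against 9195 of all 18820 measured genes. Within the 3 batches the median was 0.03 in G150, 0.65 in G151 and 0.02 in G152. G151 held a single liver of each of these groups.

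From 6 to 12 months of lifelong intermittent diet, none of the 35 genes passed, beside 0.591% of all probe sets. Against 2836 of all 18820 measured genes, 1 of the 35 had an unadjusted p under 0.05 in limma. That gene was Cdca3, which encodes a trigger of mitotic entry that directs protein degradation, with means of 5.14 ± 0.15 at 12 months (SD, n = 7) and 4.92 ± 0.16 at 6 months (SD, n = 6), a log2 difference of 0.24 ± 0.09 (SE, adjusted p = 0.243). Cdca8, a subunit of the Aurkb complex, differed by -0.18 ± 0.10, Cdk1, the kinase of mitotic entry, by -0.23 ± 0.14, and Mcm6 by -0.31 ± 0.19 (log2 ± SE), with adjusted p of 0.486, 0.490 and 0.507. The median over the 35 genes was 0.01.

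From 6 to 24 months of lifelong diet, 8 of the 35 genes had an unadjusted p under 0.05 in limma, against 4177 of all 18820 measured genes. Cdca3 alone passed, 1 of 35 genes or 2.86%, beside 4.73% of all probe sets and 6.23% of all measured genes. Its lowest, median and highest values were 4.72, 4.90 and 5.17 at 6 months, 4.98, 5.04 and 5.35 at 12 months, 5.20, 5.41 and 5.62 in switched livers at 24 months, and 5.05, 5.23 and 5.56 in lifelong livers at 24 months. All switched livers of 24 months lay above the highest liver of 6 months, and lifelong livers of 24 months overlapped it. The rise in lifelong livers was 0.35 ± 0.09 (log2 ± SE), or 1.28-fold (limma adjusted p = 0.0245). The call was lost without lifelong replicate 3 or 5 of 24 months or replicate 4 of 6 months, with adjusted p of 0.0571, 0.0626 and 0.0627. Bub1b, a kinase of the spindle checkpoint, differed by 0.34 ± 0.12, Mki67 by 0.66 ± 0.24 and Kif23, a motor of cytokinesis, by 0.46 ± 0.18 (log2 ± SE), with adjusted p of 0.107, 0.109 and 0.129. The median over the 35 genes was 0.15, against -0.0016 over all measured genes.

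From 12 to 24 months of lifelong diet, no cell cycle gene passed limma's test, beside 0.0253% of all probe sets, and 10 of 35 had an unadjusted p under 0.05, against 2312 of all 18820 measured genes. All 10 were higher at 24 months. Mki67 differed by 0.67 ± 0.23, Mcm3 by 0.30 ± 0.11, Kif23 by 0.45 ± 0.17 and Mcm6 by 0.47 ± 0.18 (log2 ± SE), with adjusted p of 0.256, 0.280, 0.303 and 0.311. The median over the 35 genes was 0.12, against -0.0142 over all measured genes. This comparison and the preceding one share the lifelong livers of 24 months.

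A further contrast, added after the data were seen, set the mean of both 24-month groups against the mean of the 6- and 12-month groups in the same model, and mixes age with the diet switch. In it 14 of the 35 genes rose and none fell, beside 10.2% of all probe sets called in either direction and 4.82% called higher. Of all measured genes 13.1% were called in either direction, and 1329 of 18820 were called higher. The median log2 difference over the 35 was 0.19, against -0.02 over all measured genes, and within G150, G151 and G152 it was 0.22, 0.25 and 0.16. With the 18 livers of G150 alone 3 of the 14 passed (Mcm2, Mcm3 and Cdca3), and in the 10 livers of the other batches limma called none of them, with all 14 differences positive in both subsets. Markers of other cell types moved in the same contrast. Of the macrophage and Kupffer cell markers 9 of 15 measured rose, of B and plasma cell markers 10 of 14, of neutrophil markers 5 of 11 and of T and NK cell markers 3 of 16. None of the 9 endothelial markers was called (1 at an unadjusted p under 0.05), and of 11 hepatocyte markers Hpx rose and Tat fell. Of those 11, 8 had lower means in the old livers, with a median difference of -0.06, and 7 had an unadjusted p under 0.05. Summed macrophage marker levels, as the mean deviation from all livers, ran from -0.28 to 1.35 in switched and -0.53 to 0.90 in lifelong livers of 24 months, and from -0.66 to just below 0 in the younger livers. Of the other lists, 2 of 10 stellate cell and fibroblast markers rose, none of 5 cholangiocyte markers was called (0 at an unadjusted p under 0.05), and 1 of 4 erythroid precursor markers, Alas2, fell. The part of these cells in the cell cycle result was not tested.

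**Figure D2:**
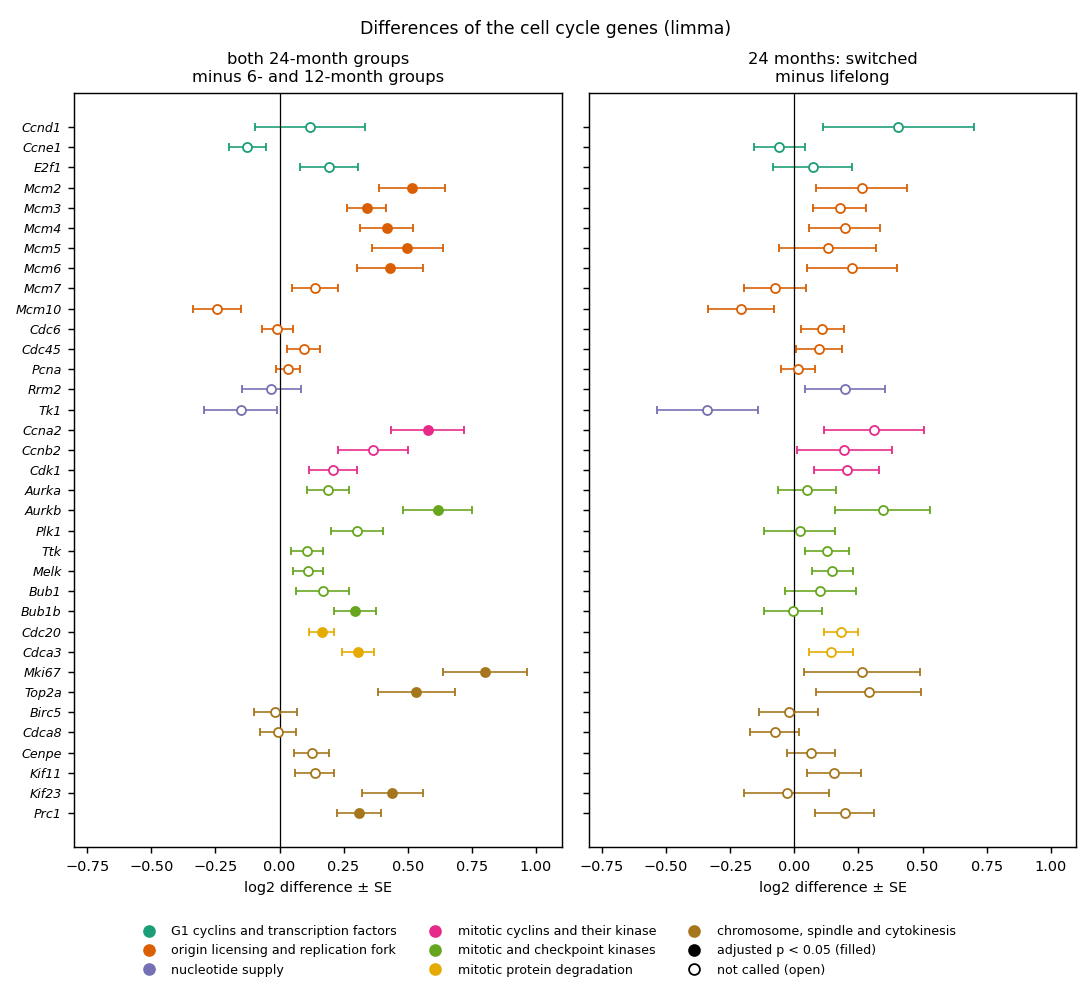
Log2 difference with its SE for each of the 35 genes, coloured by role, for both 24-month groups against both younger groups (left) and for switched against lifelong livers at 24 months (right). Filled points have an adjusted p below 0.05: 14 on the left, all above 0, and none on the right.

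None of the 3 measured G1 genes passed in this contrast (0 at an unadjusted p under 0.05, limma). Ccnd1, the cyclin that starts the cycle in hepatocytes, had the largest spread of all 35 within groups, a residual SD of 0.60. Its values ran from 8.44 to 9.98 at 6 months, 8.24 to 9.62 at 12 months, 8.36 to 10.06 in switched livers and 7.43 to 9.97 in lifelong livers at 24 months. These ranges overlap throughout, and the difference of old and younger livers was 0.12 ± 0.22 (log2 ± SE, limma adjusted p = 0.789). Ccne1, the cyclin of the G1 to S step, differed by -0.13 ± 0.07 and the transcription factor E2f1 by 0.19 ± 0.11, with adjusted p of 0.306 and 0.308.

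In the same contrast, added after the data were seen, 5 of 10 genes of origin licensing and the replication fork rose. All 5 were subunits of the helicase ring that is loaded on DNA before S phase. Beside them, 4.82% of all probe sets and 1329 of all 18820 measured genes were called higher. In lifelong livers of 24 against 6 or 12 months none of the 10 was called, with 1 and 5 at an unadjusted p under 0.05 (limma). Mcm2 had lowest, median and highest values of 5.72, 5.90 and 6.13 at 6 months, 5.75, 5.80 and 6.16 at 12 months, 5.83, 6.68 and 7.02 in switched livers at 24 months, and 5.33, 6.41 and 6.62 in lifelong livers at 24 months. Of the old livers, 6 of 8 switched and 6 of 7 lifelong lay above every younger one, and the lowest of all 28 was also an old, lifelong liver. The difference for Mcm2 was 0.52 ± 0.13 (log2 ± SE), or 1.43-fold (limma adjusted p = 0.0118), with 0.59, 0.15 and 0.61 in G150, G151 and G152. Mcm3 rose by 0.34 ± 0.08, Mcm4 by 0.42 ± 0.10, Mcm5 by 0.50 ± 0.14 and Mcm6 by 0.43 ± 0.13, with adjusted p of 0.00569, 0.00989, 0.0209 and 0.0320. Without switched replicate 1, lifelong replicate 1 of 24 months or replicate 3 of 6 months, Mcm6 missed the threshold, with adjusted p of 0.0673, 0.0506 and 0.0595.

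The sixth ring subunit, Mcm7, differed by 0.14 ± 0.09 (adjusted p = 0.357) and did not pass. The sliding clamp Pcna, a common stain for cycling cells, was nearly level: 9.11 ± 0.11 at 6 months (SD, n = 6), 9.10 ± 0.10 at 12 months (n = 7), 9.16 ± 0.18 in switched livers (n = 8) and 9.13 ± 0.07 in lifelong livers at 24 months (n = 7). Its difference of old and younger livers was 0.03 ± 0.05 (limma adjusted p = 0.731), and its other probe set gave 0.04. Cdc6 and Cdc45, which load and start the helicase, differed by -0.01 ± 0.06 and 0.09 ± 0.07 (adjusted p 0.953 and 0.409). Mcm10, a factor of origin firing, had a negative difference of -0.24 ± 0.09 (adjusted p = 0.102). No switched and 2 of 7 lifelong livers of 24 months exceeded its mean in the younger livers.

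Neither measured gene of nucleotide supply passed. Rrm2, the ribonucleotide reductase subunit made in S phase, had means of 6.59 at 6 months, 6.70 at 12 months, 6.70 in switched and 6.57 in lifelong livers at 24 months, and its difference of old and younger livers was -0.03 ± 0.11 (log2 ± SE, limma adjusted p = 0.901). The thymidine kinase gene Tk1 differed by -0.15 ± 0.14 (adjusted p = 0.560), and its second probe set by -0.24 (adjusted p = 0.225).

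Among the mitotic cyclins and their kinase, Ccna2, the cyclin of S phase and mitotic entry, rose in the contrast of old and younger livers. Its lowest, median and highest values were 4.40, 4.93 and 5.17 at 6 months, 4.96, 5.07 and 5.13 at 12 months, 4.96, 5.61 and 6.29 in switched livers at 24 months, and 4.81, 5.46 and 6.14 in lifelong livers at 24 months. In switched livers 7 of 8, and in lifelong livers of 24 months 5 of 7, exceeded every younger liver. The difference was 0.58 ± 0.14 (log2 ± SE), or 1.49-fold (limma adjusted p = 0.0103), and was 0.57, 0.83 and 0.49 within the batches. Ccnb2, a cyclin of mitosis, differed by 0.37 ± 0.14 (adjusted p = 0.0873) and Cdk1 by 0.21 ± 0.09 (adjusted p = 0.159). Cdk1 had means of 5.62 ± 0.11 at 6 months, 5.38 ± 0.20 at 12 months, 5.82 ± 0.27 in switched and 5.60 ± 0.32 in lifelong livers at 24 months (SD), and the difference of 12 and 6 months given above, -0.23, is as large in size as that of old and younger livers.

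In the contrast of old and younger livers all 7 mitotic and checkpoint kinases had positive differences, against 8237 of all 18820 measured genes. Of the 7, 2 passed, beside 4.82% of all probe sets called higher. Aurkb, the kinase that corrects chromosome attachment and drives cytokinesis, had lowest, median and highest values of 4.42, 4.70 and 4.97 at 6 months, 4.32, 4.72 and 4.95 at 12 months, 4.49, 5.42 and 6.23 in switched livers and 4.66, 5.09 and 5.77 in lifelong livers at 24 months. In switched livers 7 of 8, and in lifelong livers of 24 months 4 of 7, exceeded every younger liver. Aurkb rose by 0.62 ± 0.13 (log2 ± SE), or 1.53-fold (limma adjusted p = 0.00491), with 0.60, 0.68 and 0.64 within the batches. Bub1b rose by 0.29 ± 0.08 (adjusted p = 0.0232), which became 0.27 and missed the threshold without switched replicate 1. Plk1, which drives spindle assembly and mitotic exit, differed by 0.30 ± 0.10 (adjusted p = 0.0571). Aurka, Ttk, Melk and Bub1 differed by 0.11 to 0.19, with adjusted p of at least 0.152.

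Both measured genes of mitotic protein degradation rose in the same contrast, beside 4.82% of all probe sets called higher. Cdca3 rose by 0.31 ± 0.06 and Cdc20 by 0.16 ± 0.05 (log2 ± SE, limma adjusted p 0.00284 and 0.0322). Cdc20 stood higher than every younger liver in 7 of 8 switched livers but in 1 of 7 lifelong livers of 24 months. It missed the threshold without switched replicate 1 (adjusted p = 0.0603), without replicate 3 or 4 of 12 months (0.0556 and 0.0543) or without replicate 6 of 6 months (0.0777).

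Of the genes of chromosomes, spindle and cytokinesis, 4 of 8 rose in the same contrast, beside 4.82% of all probe sets called higher. Mki67 had the largest difference of the 35 genes, 0.80 ± 0.16 (log2 ± SE), or 1.74-fold (limma adjusted p = 0.00316), with 0.77, 1.34 and 0.57 within the batches. Top2a, the topoisomerase that untangles sister chromatids, had lowest, median and highest values of 4.09, 4.38 and 4.58 at 6 months, 4.37, 4.54 and 4.82 at 12 months, 4.40, 5.32 and 5.71 in switched livers and 4.22, 4.74 and 5.59 in lifelong livers at 24 months. Here 5 of 8 switched and 3 of 7 lifelong livers of 24 months exceeded every younger liver. Top2a rose by 0.53 ± 0.15, or 1.45-fold (adjusted p = 0.0222), but by 0.63, 0.71 and 0.03 within G150, G151 and G152. Its 2 dimmer probe sets gave 0.04 and -0.06 and were not called.

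Kif23 rose by 0.44 ± 0.12 (limma adjusted p = 0.0192) and the microtubule bundler Prc1, also of the central spindle, by 0.31 ± 0.08 (adjusted p = 0.0197; log2 ± SE). The second Prc1 probe set gave -0.07, and with the mean of both the difference of Prc1 was 0.12, no longer past the threshold. The motors Cenpe and Kif11 differed by 0.12 ± 0.07 and 0.14 ± 0.08, with adjusted p of 0.256 and 0.283. Birc5 and Cdca8, partners of Aurkb in the chromosomal passenger complex, were at -0.02 ± 0.08 and -0.01 ± 0.07 (adjusted p 0.932 and 0.964), so within this complex Aurkb passed and these did not; the difference between them was not tested. Cenpe and Ttk, among the dimmest of the probe sets, had group means of 3.30 to 3.47 and 2.82 to 3.02, and no detection call was made. Prc1, which was called, was about as dim as Cenpe, with group means of 3.23 to 3.66. Bub1b, Cdc20, Top2a and Mki67, also called, had means over all livers of 4.44 to 4.89, below the lowest array median of 5.23.

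The SD within groups was larger at 24 months than in the younger livers for 31 of 35 genes (88.6%), with a median of 0.273 against 0.188. Over all 18820 measured genes it was larger at 24 months for 58.5%, with medians of 0.162 and 0.152, and the difference between the 2 shares was not tested. The median over the 35 genes of a liver's deviation from the mean of all livers ran from -0.21 to -0.04 at 6 months, -0.19 to -0.04 at 12 months, -0.16 to 0.41 in switched livers and -0.23 to 0.20 in lifelong livers at 24 months. Switched replicates 1, 4 and 7 stood highest, with 31, 31 and 30 of 35 genes above the mean of all livers, and lifelong replicate 5 of 24 months had 30. Lifelong replicate 7 of 24 months had 5 and switched replicate 3 had 8, counts within the range of 3 to 16 seen in younger livers.

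**Figure D3:**
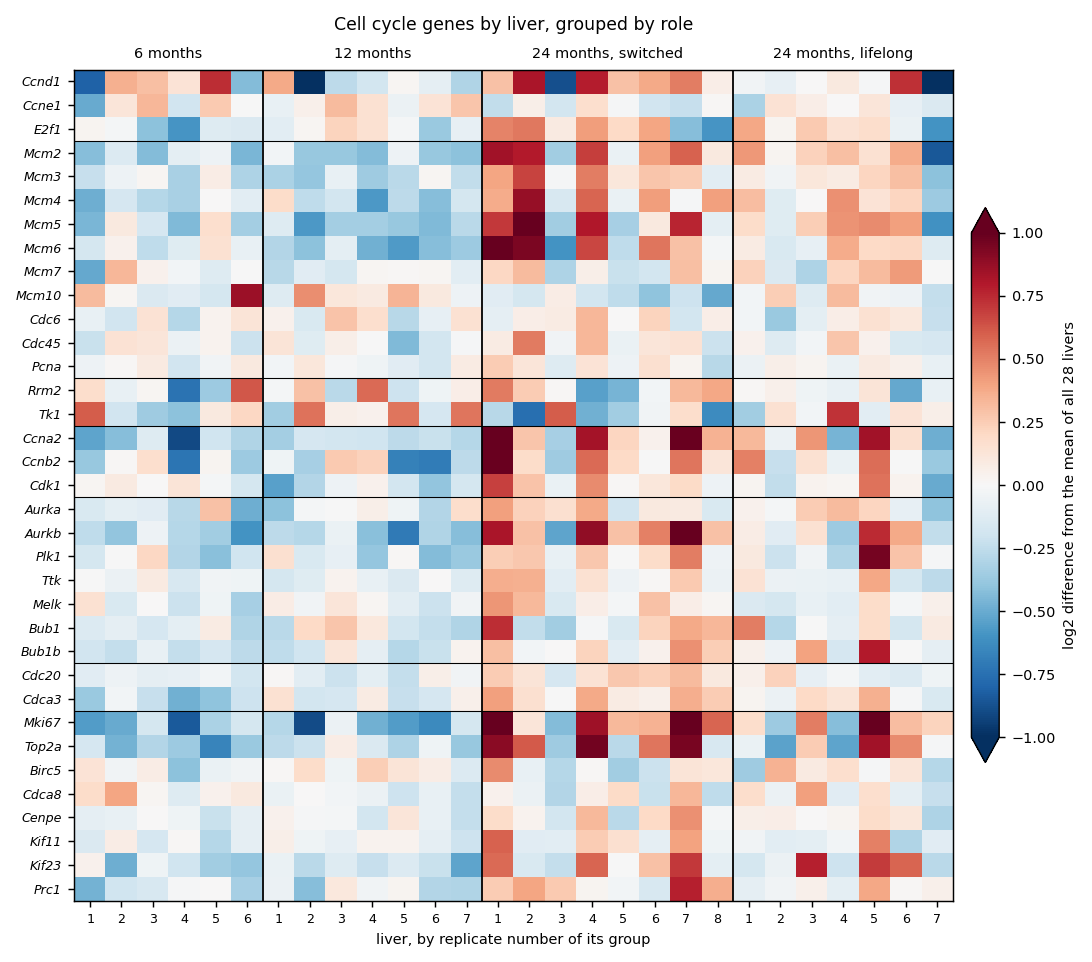
Log2 difference of each of 35 genes from its mean over all 28 livers (colour, cut at ±1), with livers in columns by group and genes in rows by role. Columns of red across many genes appear in some livers of 24 months, such as switched replicates 1, 4 and 7 and lifelong replicate 5, and not in others of the same groups.

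Some late genes varied with Mki67 from liver to liver. After the group and batch means were removed, Mki67 correlated with 10 of 34 other genes (permutation test within groups over 28 livers, 34 relations, Benjamini-Hochberg adjustment), each positively. All 10 were among the 19 other genes of mitosis on the list, and 9 of those 19 did not pass, among them Aurka, Cdc20 and Birc5 with r of 0.10, 0.14 and 0.22. The strongest were Ccna2 (Pearson r = 0.83, Spearman rho = 0.74, adjusted permutation p 0.00034 for r and 0.00249 for rho), Bub1b (r = 0.80, rho = 0.77, adjusted p 0.00034 and 0.00204) and Aurkb (r = 0.80, rho = 0.59, adjusted p 0.000793 and 0.0212), and the unadjusted p of 1e-05 for Ccna2 is the smallest that the permutations can give. Top2a, Ccnb2, Kif23, Plk1 and Cdca3 followed with r of 0.66 to 0.73, and Kif11 and Bub1 with 0.58 and 0.52. The last 2 did not pass by rho, nor in residuals from the groups alone. With the 2 livers farthest in Mki67 left out, switched replicate 3 and lifelong replicate 5 of 24 months, r was 0.74 for Ccna2, 0.78 for Bub1b and 0.67 for Aurkb, and 8 of the 10 still passed. The groups pooled here differ in spread. The SD within groups was 0.54 at 24 months and 0.27 in younger livers for Mki67, and 0.48 and 0.19 for Ccna2. Whether the correlations hold among the younger livers alone was not tested.

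**Figure D4:**
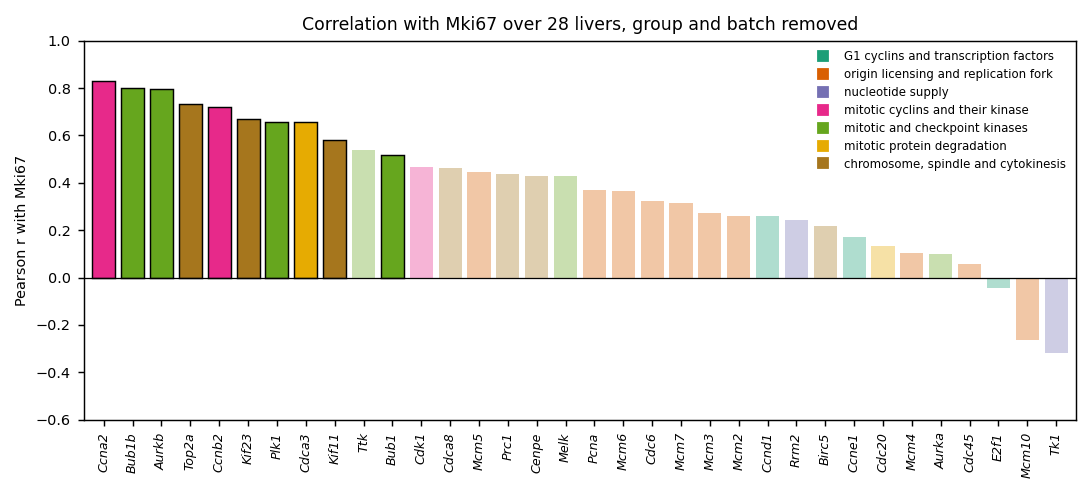
Pearson r of each of 34 genes with Mki67 over 28 livers after removal of group and batch means, coloured by role, with full colour and an outline for an adjusted permutation p below 0.05. The 10 outlined bars are late genes, from Ccna2 at 0.83 to Bub1 at 0.52, and the helicase subunits stand between 0.10 and 0.45.

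The helicase subunits Mcm2 to Mcm7 also varied together. Their 15 pairwise correlations ran from 0.42 to 0.87 with a median of 0.68, and r with Mki67 was 0.26 for Mcm2, 0.27 for Mcm3, 0.10 for Mcm4 and 0.45 for Mcm5, none of which passed. Over all 35 genes the median pairwise r was 0.31. These pairs share livers and arrays and are given as a description. The median r with Mki67 was 0.40 over the other 34 genes, against -0.02 over 18819 other genes, and 32.4% of them against 5.12% had an r of at least 0.5.

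The genes most like Mki67 over the 28 livers by the same measure included genes outside the list, named here after their values were seen. In rank order the 4 genes above Ccna2 were Ttyh3 (r = 0.85), the kinetochore gene Nuf2 (0.85), Myof (0.84) and the histone gene H2ac15 (0.84). Below Ccna2 came Tnfaip8l2 (0.826), Selplg (0.825), Tlr4 (0.822) and further genes outside the list, all ahead of Bub1b, the next listed gene. Of 9 marker lists, a comparison added after the data were seen, 4 passed: the score of macrophage and Kupffer cells (r = 0.74, rho = 0.69, adjusted permutation p 0.00378 and 0.00279), of T and NK cells (r = 0.66, rho = 0.61, adjusted p 0.00823 and 0.00927), of neutrophils (r = 0.58, rho = 0.67, adjusted p 0.0340 and 0.00279) and of endothelial cells (r = 0.57, rho = 0.43, adjusted p 0.0340 and 0.0920). Without the 2 farthest livers these were 0.73, 0.69, 0.59 and 0.61. The hepatocyte score gave r = -0.09 and rho = 0.04, with adjusted p of 0.754 and 0.859, and B and plasma cells r = 0.37 and rho = 0.37, with adjusted p of 0.180 and 0.149. Hepatocyte transcripts dominated as labelled, with Alb at 13.48 to 13.72 in every liver, and whether the cycling transcripts came from hepatocytes or other cells was not tested.

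Further cell cycle genes, 131 in 7 lists, were read in the same way. In the same contrast of old against younger livers 6 of 29 measured replication genes rose, among them the clamp loader subunit Rfc5 by 0.25 ± 0.06 and the licensing factor Cdt1 by 0.35 ± 0.09 (limma adjusted p 0.00791 and 0.0151; log2 ± SE). Of 42 other mitosis genes 8 rose and none fell. These were 20.7% of the replication and 19% of the mitosis genes. Over the array, 4.82% of all probe sets and 1329 of all 18820 measured genes were called higher in this contrast. The condensin subunit Ncapd2 rose by 0.28 ± 0.05 and the checkpoint gene Mad2l1 by 0.49 ± 0.09 (adjusted p 0.000656 and 0.00160). In lifelong livers of 24 against 6 months 1 of the 29 and 2 of the 42 passed, beside 4.73% of all probe sets and 6.23% of all measured genes: Ncapd2 rose by 0.30 ± 0.07, Rfc5 by 0.35 ± 0.09 and Mad2l1 by 0.46 ± 0.13 (adjusted p 0.0127, 0.0200 and 0.0451).

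Some regulators passed the test. In lifelong livers of 24 against 6 months 1 of 16 RB, E2F and DREAM regulators (6.25%) and 2 of 13 other cyclins and their kinases (15.4%) were called. Of 6 measured controllers of CDK1, 1 was called (16.7%). The shares over the array were 4.73% of all probe sets and 6.23% of all measured genes. In the same comparison the DNA damage kinase Chek2 rose by 0.57 ± 0.13 and Ccng1, a target of p53, by 0.35 ± 0.09 (log2 ± SE, limma adjusted p 0.0123 and 0.0280). Cks1b, a subunit that binds cyclin-dependent kinases, fell by 0.46 and Lin52, a subunit shared by DREAM and the B-MYB complex, fell by 0.30 (adjusted p 0.0343 and 0.0258). Over both 24-month groups against both younger groups, 1 of 16 RB, E2F and DREAM regulators rose (Rbl1) and 2 fell (Lin52 and Tfdp1). That is 18.8% called, beside 10.2% of all probe sets and 13.1% of all measured genes. In the same contrast 1 of 13 other cyclins and their kinases rose (Ccng1) and 2 fell (Ccnf and Cks1b), or 23.1%. Of 6 measured controllers of CDK1 the genes Chek2 and Cdc25b rose, or 33.3%. None of the 7 measured inhibitors of cyclin-dependent kinases was called in any of the comparisons by limma, and at most 1 had an unadjusted p under 0.05 in each. Cdkn1a, which encodes p21, ranged from 6.88 to 9.81 in switched livers and 6.20 to 9.28 in lifelong livers at 24 months, with means of 8.57 ± 1.01 and 7.34 ± 1.02 (SD, n = 8 and 7). Its log2 difference was 1.33 with an adjusted p of 0.642, and the younger livers spread as far, from 5.84 to 9.80 at 6 months and 5.69 to 9.72 at 12 months. None of the 11 immediate early and priming genes, such as Fos, Jun and Myc, was called, and at most 3 had an unadjusted p under 0.05 in a comparison.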

How the data were processed

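Liver RNA of 28 mice was hybridised to single-colour arrays. The authors summarised the arrays with RMA, per the submitters' processing notes, and deposited log2 expression values, which entered the tests without further normalisation. Neither the version of RMA nor whether the arrays were processed together is given in the sources used here. The number of arrays limits the precision.

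All 35556 probe sets were fitted together in limma 3.58.1, run in R 4.3.3. Group (4 levels) and batch were fixed terms, tests were two-sided, and each comparison's p-values were adjusted over the full array by the Benjamini-Hochberg method with 0.05 as the limit. SE is the moderated standard error. No probe set was filtered out. Correlations used residuals of this model with 100000 permutations within groups (Python 3.11.15, numpy 2.4.6). The code was tested on simulated data.

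The members, roles, gene lists and tests were chosen with earlier results of these data known. Differences were given for genes that passed, for the 4 of smallest p per comparison and for representatives of each role. They were also given for the highest, lowest and most variable probe sets. Values by group were given for part of these genes. Further lists held regulators of the cycle, other replication and mitosis genes, and markers of liver and blood cell types. Replicate numbers did not pair the livers: same-numbered livers of different groups correlated between -0.224 and 0.247 over probe sets (39 pairs) in their deviations. The alternatives tried were the batch term, each batch apart, the groups compared alone, a filter on the dimmest 30%, repeated quantile normalization, centring, robust moderation, array weights, the replicate block, the mean of a gene's probe sets, and each array left out in turn.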

Additional observations from a re-analysis of the deposited data

Results flagged for a closer look

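Among 140 combinations of a gene and a group, 9 held a liver whose gap to the nearest other liver was large for the group's range, where chance gives about 1 in 20. Lifelong replicate 7 of 24 months was low in Ccnd1 at 7.43 (next lowest 9.16), in Mcm2 at 5.33 (next lowest 6.21) and in Cenpe at 3.07 (next lowest 3.38). Lifelong replicate 6 of 24 months was low in Rrm2 at 6.14. Lifelong replicate 5 of 24 months was high in Kif11 at 5.37 (next highest 4.84) and in Prc1 at 3.81 (next highest 3.47). Switched replicate 3 was low in Ccnd1 at 8.36 (next lowest 9.31) and in Cdc20 at 4.50 (next lowest 4.77). Replicate 4 of 6 months was low in Birc5 at 4.13. All values are log2 expression values.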

How the results depend on the processing

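Differences of the named genes and the medians kept their sign in the refits except the median of 12 against 6 months, which was 0.0123, at most 0.0493, and -0.0045 without replicate 1 of 6 months. Within a single batch some turned: in G151 the median of 24 against 12 months (-0.05), Mcm3 (-0.28) and Kif23 (-0.09) there, and Kif23 of 24 against 6 months (-0.07), and in G152 Cdk1 of 12 against 6 months (0.22) and Cdc20 of switched against lifelong livers (-0.04). The count of 0 genes for switched against lifelong livers, for 12 against 6 and for 24 against 12 months was the same under all alternatives. Batches apart hold fewer livers: with G150 alone the counts were 0 for 24 against 6 months, 0 over the 4 groups and 3 for both old against both younger groups (Mcm2, Mcm3 and Cdca3), and with G151 and G152 alone they were 0, 0 and 0. In G151 and G152 the median for switched against lifelong livers was 0.326. With the replicate number as a block with batch, 0 genes were called for 24 against 6 months, 2 over the 4 groups and 12 for old against younger, of which 11 were among the 14. Without the pair of arrays whose names carry an added suffix, 2 genes were called for 24 against 6 months. Leaving out each liver gave 0 to 3 for 24 against 6 months (changed by lifelong replicates 3, 5 and 7 of 24 months and replicate 4 of 6 months), 11 to 16 for old against younger, and 4 to 12 over the 4 groups (changed by replicates 1, 2, 3, 4 and 6 of 6 months and switched replicates 1, 2, 4 and 7). Mki67 correlations passed for 8 genes without the batch term and for 8 without the 2 farthest livers. Over the whole 300 bases of each promoter, 50 of them past the start, 18 of 37 held a CHR and 18 a CHR with CCAAT, in place of 10. The cause of these changes was not tested. Dim probe sets have no detection call, so a gene that did not pass is not shown to be unchanged.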
